A study of Mus musculus with 16 samples.

Results

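Cluster 2 is 1 of the 3 clusters that the authors named Astro in their single-cell RNA data from mouse spinal cord, the others being Clusters 5 and 7. Its members were taken by name: every cell whose cell type in the deposited cell table begins with the number 2, which gave 1213 of 18203 cells. The 20 genes that stood out most against all other cells, Clusters 5 and 7 included, held 0 of 22 genes of an astrocyte list. Since only 20 of 1066 genes were taken, a count of 0 is near the share over all genes. The list took 1.76% of the RNA molecules counted, below Cluster 5 (3.48%) and Cluster 7 (3.22%). In the clusters with other names it took 0.0562 to 0.531%. These values do not settle the name, and the cells are called Cluster 2 below.

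The study asked what the loss of the Wnt receptor Ryk from astrocytes changes after a cut through the dorsal columns at cervical level C5. Cells were dissociated from the cord of single mice with pronase in the presence of actinomycin D, dead cells were removed, and each of 16 mice gave 1 10x Genomics 3′ library. The mice were 8 to 10 weeks old, of genotype Rykfl/fl,GFAPcreERT2 (cKO) or Ryk+/+,GFAPcreERT2 (WT), and were taken without injury (Sham in the labels, uninjured in the paper) or 1 d, 7 d or 14 d after it, with 2 mice per genotype and time. Both genotypes thus carried the Cre, which the GFAP promoter drives, and received daily tamoxifen.

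Astrocytes clear glutamate and potassium, couple through gap junctions and, in white matter, lie between myelinated axons. RNA has addresses inside cells: neurons send transcripts of cytoskeletal proteins and the short RNA Bc1 out along their processes, oligodendrocytes carry Mbp mRNA into the myelin sheath, and long non-coding RNAs such as Malat1 remain in the nucleus. Ryk binds Wnt ligands and is best known in the cord for its role in the repulsion and retraction of corticospinal axons.

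The cells came unevenly from the libraries. Animal numbers in the labels fall into a set below 10000, which holds 6 mice, all replicate 1, and a set of 10000 and above, called the higher set here. Cluster 2 had 4 to 14 cells in each mouse of the lower set, 48 cells in all, and 56 to 269 cells in each of 9 mice of the higher set, 1165 cells in all. The remaining mouse, WT 1 d replicate 2, had 1 cell of any kind and none of Cluster 2. The lower set also stood apart in what its cells held: genes of an endothelial list took 0.337 to 2.56% of their unique molecular identifiers (UMIs, counts of captured RNA molecules), against 0.0263 to 0.140% in the higher set. Conditions were taken from the sample titles. The cell names give another condition for 6 mice, all replicate 2, and 5 of these are in the higher set with Cluster 2 cells: WT uninjured (named cKO uninjured), cKO uninjured (WT 7 d), WT 7 d (WT 1 d), WT 14 d (cKO 14 d) and cKO 14 d (cKO 7 d). Of the cells of Cluster 2, 8 had a barcode that is also present in another library. Results are therefore given for the 11 mice with at least 10 cells and, where they differ, for the 9 mice of the higher set alone.

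The cells were shallow. Their median was 834 UMIs and 442 genes, and 64.1% had under 1000 UMIs, against 36.6% in Cluster 5 (median 1377 UMIs) and 30.6% in Cluster 7 (median 2882 UMIs). Mitochondrial UMIs took a median of 11.3%, close to the 10.7% of Cluster 5 and above the 3.42% of Cluster 7. More than 20% of the UMIs were mitochondrial in 16.2% of the cells of Cluster 2, under an upper limit of 25% that the authors set. Summed over a mouse, Cluster 2 held 4570 to 242336 UMIs in the 11 mice.

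None of the genes that led Cluster 2 was in the astrocyte list. Among 1066 genes with a UMI in at least 10% of its cells, the 20 with the largest ratio to all other cells comprised 10 mitochondrial tRNA genes, 3 genes of a list of 22 axon and cytoskeleton genes (Nefh, Kif5a and Nefl), and 7 genes of no list. Highest of these 7 was Gng13, a G protein subunit, at 9.60 times the level in other cells. The calcium binding protein gene Pvalb (7.60), Nrsn1 (7.40) and the calmodulin regulator gene Pcp4 (7.17) came next. Bex2 (6.97), the neuronal transcription repressor gene Scrt1 (6.96) and Cplx1 (6.93), whose product clamps synaptic vesicle fusion, were the others. A ratio of this kind describes cells that were grouped by their expression, and no test was made of it.

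Kif5a, which encodes the motor that carries neurofilaments and vesicles down axons, took 1655 CPM (UMIs of a gene per 1e6 UMIs) in Cluster 2, pooled, against 212 in all other cells. Over the 11 mice it ranged from 0 to 3206 CPM with a median of 1576, and the 0 belongs to WT uninjured replicate 1 with its 11 cells. The mean was 1539 ± 819 (SD, n = 11), compared with 1052 ± 525 in Cluster 5 of the same mice and 96.0 ± 44.4 in Cluster 7. It was higher than in Cluster 5 in 10 of 11 mice and in 9 of 9 of the higher set, by a mean log2 ratio of 0.44 and 0.47. Kif5a thus separated Cluster 2 widely from Cluster 7 (mean log2 ratio 3.08) and narrowly from Cluster 5.

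Nefl, the light neurofilament subunit, ranged from 219 to 2449.7 CPM with a median of 1101, and its mean was 1185 ± 676, against 924 ± 454 in Cluster 5 and 61.1 ± 28.5 in Cluster 7. It exceeded Cluster 7 in 11 of 11 mice (mean log2 ratio 3.29) but Cluster 5 in only 8 of 11 (0.40), the exceptions being both uninjured mice of replicate 2 and WT 14 d replicate 2. Cluster 3, which the authors named Neuronal, was lower as well, at 293 ± 164, and Cluster 2 exceeded it in 11 of 11 mice.

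Bc1, a non-coding RNA that represses translation in dendrites and axons, was the only gene of the axon list above Cluster 5 in every mouse. It ranged from 122 to 3574 CPM with a median of 1244, and its mean of 1352 ± 993 compared with 916 ± 799.8 in Cluster 5 (mean log2 ratio 0.72) and 133 ± 168 in Cluster 7 (2.93). Its level varied together in Clusters 2 and 5, being lowest in the lower set and highest in cKO 1 d replicate 2 in both.

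S100b, a calcium binding protein of astrocytes and oligodendrocytes, ranged from 219 to 2865 CPM with a median of 1709.8. Its mean of 1627 ± 711 did not differ from that of Cluster 5 (1392 ± 549) beyond the spread of the mice, with a mean log2 ratio of 0.18 ± 0.57 and higher values in 7 of 11 mice. Among the clusters compared within mice, the highest level of S100b was not in an Astro cluster but in Cluster 8, named Oligo. It stood at 3413 ± 1953 there, above Cluster 2 in 10 of 11 mice.

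**Figure D1:**
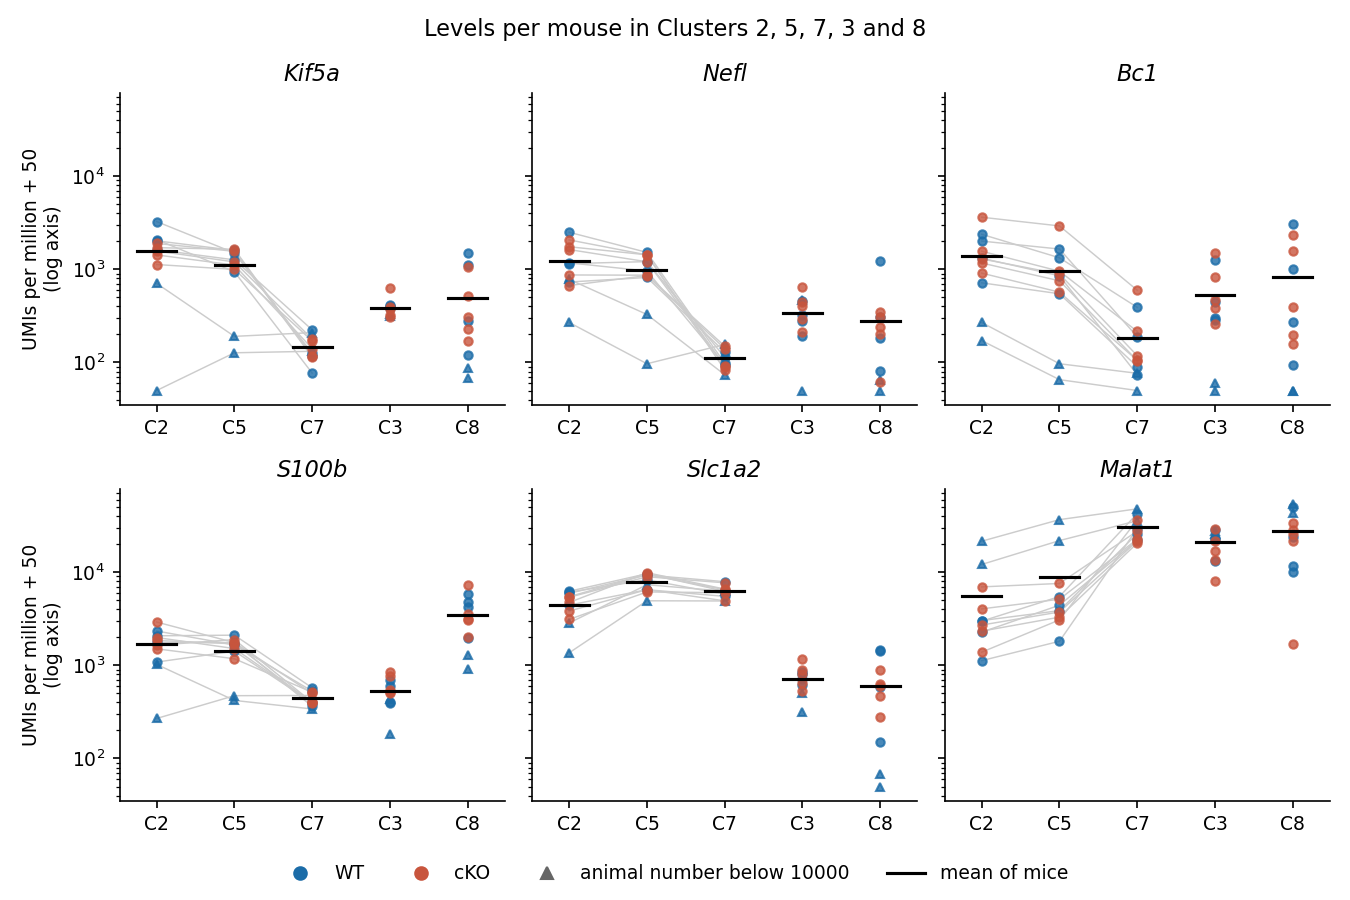
CPM plus 50 (log axis) of 6 genes in Clusters 2, 5, 7, 3 and 8, with 1 point per mouse (11 mice), grey lines joining Clusters 2, 5 and 7 of a mouse, and bars at the mean. Kif5a, Nefl and Bc1 are far above Cluster 7 and close to Cluster 5, Slc1a2 lies below both, and Malat1 lies below all 4 other clusters in every mouse.

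Genes of astrocytes were present but low. All 22 genes of the astrocyte list had UMIs, and together they took 1.76% of the UMIs of Cluster 2, against 3.48% in Cluster 5, 3.22% in Cluster 7 and 0.440% in Cluster 3. The most abundant was Slc1a2, the main glutamate transporter, with 4441 ± 1560 CPM against 7843 ± 1695 in Cluster 5, lower in 11 of 11 mice. Aqp4, the water channel of astrocyte endfeet, stood at 385 ± 229 against 1452 ± 683 in Cluster 5 and 1301 ± 248 in Cluster 7, again lower in 11 of 11 mice than in either. Of the 22 genes, 19 were lower than in Cluster 5 in all 9 mice of the higher set, where 10.4% of all genes were, and 17 in all 11 mice, where 6.33% were.

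Genes of axons took 1.27% of the UMIs, against 1.04% in Cluster 5, 0.198% in Cluster 7 and 0.572% in Cluster 3, and Bc1 was the most abundant of the list at 1782 CPM. All 22 had a UMI. In the 9 mice of the higher set, 20 of the 21 that passed a floor on level were above Cluster 7 in every mouse, where 23.3% of all genes were. Above Cluster 5 in each of these mice were 3 of 21 (Kif1a, Bc1 and Kif5a), where 1.43% of all genes were. By share, the axon list was thus close in Clusters 2 and 5 and lower in Cluster 7. Its count above Cluster 5 still exceeded the share over all genes.

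A list of 14 neuron cell body genes took 0.208% of the UMIs, against 1.13% in Cluster 3 and 0.164% in Cluster 5. Snap25, a vesicle fusion protein, was its most abundant gene and stood at 772 ± 432 CPM in Cluster 2, no lower than the 525 ± 181 of Cluster 3. Rbfox3, the splicing factor known as NeuN, stood at 134 ± 97.9 against 527 ± 214 in Cluster 3, and the nuclear RNA Meg3 at 298 ± 219 against 7888 ± 4929, both lower in 11 of 11 mice. Meg3, which is also in the nuclear list below, thus made up most of the difference in the summed share. Chat, the enzyme of cholinergic neurons, had 0 UMIs. Of 12 genes that passed the floor, Snhg11, Syt1, Rbfox3 and Meg3 were below Cluster 3 in every mouse, as were 22.5% of all genes, and 0 were above it, as were 5.78%. The median log2 ratio of the list was -0.42 against -0.29 over all genes, so that as a list it lay near the background.

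Nuclear long non-coding RNA was low as a list. Malat1 ranged from 1073 to 21444 CPM with a median of 2926, both of the highest values being from the lower set. Clusters 7, 3 and 8 had means of 30129.8 ± 9211, 20864 ± 7080.1 and 27594 ± 16708, and Malat1 was lower in Cluster 2 than in each of these and than in Cluster 5 in 11 of 11 mice. The mean log2 ratio was -3.00 to Cluster 7 and -0.64 to Cluster 5. A list of 10 nuclear long non-coding RNAs took 0.404% of the UMIs, against 0.652% in Cluster 5, 2.93% in Cluster 7 and 3.32% in Cluster 3. Of 9 past the floor, 8 were below Cluster 3 in all 9 mice of the higher set, where 39.8% of all genes were. Against Cluster 5, Meg3 of this list went the other way. It was higher in Cluster 2 in all 9 mice of the higher set, with means of 288 and 173 CPM.

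Ribosomal and mitochondrial transcripts were higher than in the other Astro clusters. Ribosomal protein genes took 6.70% of the UMIs, against 5.46% in Cluster 5, 0.664% in Cluster 7 and more in Clusters 6, 10, 12 and 17 (8.34 to 12.8%), and 75 of 76 were above Cluster 7 in all 9 mice of the higher set, where 23.3% of all genes were. The 37 mitochondrial genes took 12.4%, against 10.6% in Cluster 5 and 3.58% in Cluster 7. Pooled over mice, the gene with the most UMIs of all was Gm42418, at 112990.0 CPM, a lincRNA on chromosome 17 (39846958 to 39848788 in mm10). It lies inside an annotated ribosomal RNA, CT010467.1 (39846353 to 39848827). Through this gene alone, 11.3% of the UMIs of Cluster 2 map to ribosomal RNA sequence. Gm42418 was also high in Cluster 5 (82988 CPM) and Cluster 3 (82462 CPM), and lower in Cluster 7 (22223 CPM). WT and cKO uninjured replicate 2 held 43290 and 45575 of its 141644 UMIs in the 11 mice.

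A gene's span on the genome, introns included, went with its level. Relative to Cluster 7, levels in Cluster 2 fell with span (Spearman rho -0.594 across 4465 genes, log2 ratios), with a median of 0.97 for genes under 10 kb and -1.09 for genes over 100 kb. Across 4538 genes the ratio to Cluster 3 fell likewise (rho -0.761), whereas the ratio to Cluster 5 hardly did (rho -0.0893 across 3163 genes). Genes are not independent replicates, and the shares of nascent and mature RNA were not measured.

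Genes of oligodendrocytes and myelin took 5.13% of the UMIs, more than the 3.23% of Cluster 5 and the 0.555% of Cluster 7 but less than the 6.28% of Cluster 4 and the 10.5% of Cluster 8. All 20 had a UMI. The most abundant was Fth1, ferritin heavy chain, which many cell types make, at 26454 CPM, and without it the list took 2.49%, against 1.67% in Cluster 5, 5.14% in Cluster 4 and 7.91% in Cluster 8. Mbp, the myelin basic protein whose mRNA travels into the sheath, was as high in Cluster 2 (12076 ± 6141) as in the oligodendrocytes of Cluster 8 (11987 ± 10514), above them in 7 of 11 mice.

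RNAs of the 3 lists of astrocytes, axons and myelin were also counted in other kinds of cells. Fth1 was left out of this comparison, a choice made after its values were seen. In the 9 mice of the higher set the remaining genes took 5.55% of the UMIs of Cluster 2, 6.27% in Cluster 5, 8.86% in Cluster 8, 0.785% in the endothelial Cluster 1 and 0.446% in the microglial Cluster 6. Per UMI of the astrocyte list, a mouse had a median of 0.738 axon list UMIs in Cluster 2, 0.755 in Cluster 1 and 0.759 in Cluster 6, but 0.305 in Cluster 5 and 0.0670 in Cluster 7. For the myelin list the medians were 1.16 in Cluster 2, 1.51 in Cluster 1, 2.21 in Cluster 6, 0.479 in Cluster 5 and 0.0862 in Cluster 7. Axon and myelin medians were 0.399 and 0.632 in the pericytes of Cluster 9, 0.295 and 0.952 in the fibroblasts of Cluster 14 (6 mice), and 0.891 and 2.31 in Cluster 10, also named Microglial. How far other genes of the lists are made by these cells themselves was not tested. Across the 63 genes, the log2 levels of Cluster 2 correlated with those of Cluster 5 at r = 0.922, Cluster 3 at 0.844, Cluster 1 at 0.805, Cluster 16 at 0.792, Cluster 9 at 0.744, Cluster 6 at 0.571 and Cluster 7 at 0.481, a description across genes. UMIs from free RNA were not removed here, no step against doublets is described in the study's methods, and none was taken here. The part of either in Cluster 2 was not tested.

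**Figure D2:**
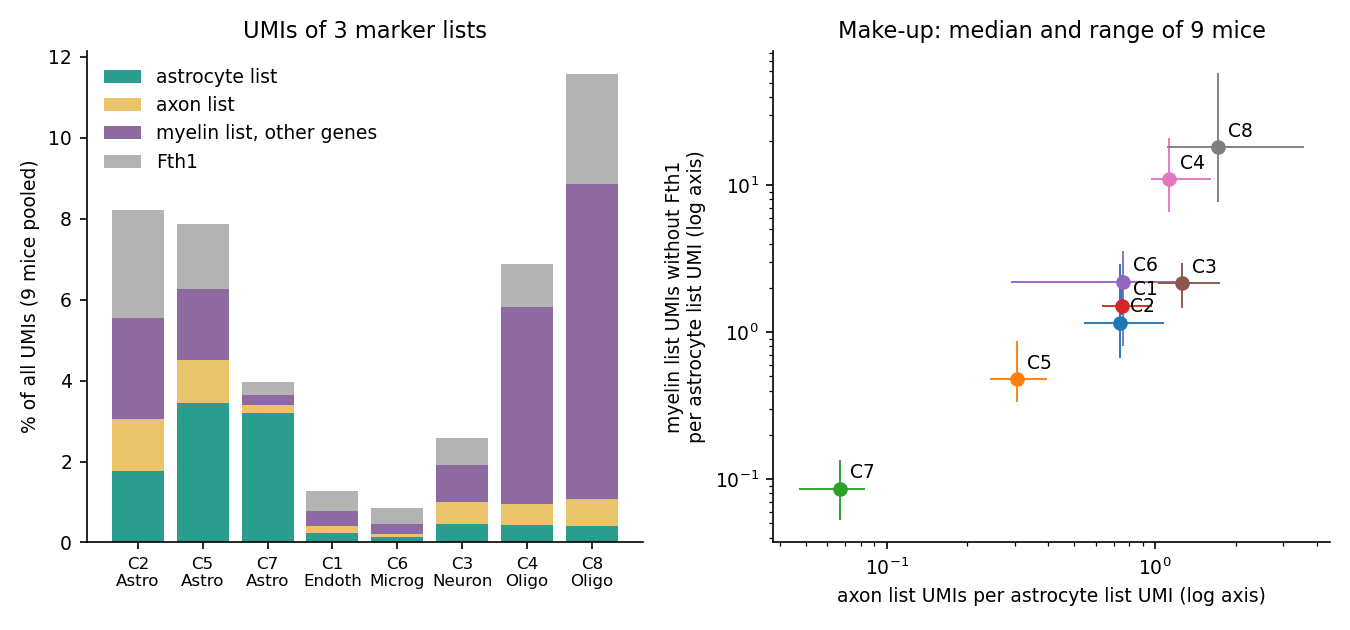
Left, share of all UMIs (%) taken by the astrocyte, axon and myelin lists in 8 clusters, with Fth1 apart, pooled over the 9 mice of the higher set. Right, axon list and myelin list UMIs (without Fth1) per astrocyte list UMI (log axes), as the median and range of the 9 mice. Without Fth1 the 3 lists took 5.55% of the UMIs of Cluster 2 against 0.785% in Cluster 1 and 0.446% in Cluster 6, at similar axon to astrocyte ratios in all 3.

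UMIs of all 3 lists were found in most cells. At least 1 UMI of each list was found in 1165 of 1213 cells, 96.0% (95% Clopper-Pearson interval 94.8 to 97.1%), against 39.5% in microglial Cluster 6. Medians were close, at 834 and 780.5 UMIs, but the 5th to 95th percentiles were 521 to 2205 UMIs in Cluster 2 and 303 to 13255 in Cluster 6. Cells thinned to 500 UMIs, which makes totals equal and left out 30 cells of Cluster 2, gave 94.3% (92.9 to 95.6%). The separate shares were 97.0% (astrocyte), 97.2% (axon) and 99.8% (myelin), with a product of 94.2%. With shares this high the joint share could hardly differ from the product. The values thus cannot show whether the lists occur together. Thinned cells of Clusters 5, 3, 8, 7 and 1 gave 91.6%, 72.3%, 71.4%, 47.0% and 37.4%, and those of Cluster 6 gave 8.69%. Thinning left out 1047 cells of Cluster 1 and 407 of Cluster 6, and the cells of Cluster 6 that remained began from a median of 2360 UMIs against 843 in Cluster 2, so that the 8.69% is no level of background for Cluster 2. With at least 2 UMIs of each list, thinned cells of Cluster 2 gave 85.0%. Without Fth1 the share in Cluster 2 was 95.8% as deposited (94.5 to 96.9%) and 93.6% after thinning, where Clusters 5, 8, 3, 7, 1 and 6 gave 89.9%, 71.4%, 69.8%, 36.6%, 33.99% and 6.60%. Within the 9 mice of the higher set the thinned share with 1 UMI of each was 91.1 to 100% with Fth1 and 87.5 to 98.4% without it. No library of this set thus carried it alone. The lower set differed: the share was 72.7% in the 11 cells of WT uninjured replicate 1 and, as deposited, 28.6% in the 14 cells of WT 7 d replicate 1, fewer than 10 of which had the 500 UMIs needed for thinning.

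Single genes also differed between Cluster 2 and the microglia. Kif5a was found as deposited in 59.4% of the cells of Cluster 2 and 8.66% of those of Cluster 6. After thinning to 500 UMIs the share in Cluster 2 was 45.98%, compared with 34.1% in Cluster 5, 4.66% in Cluster 7 and 2.42% in Cluster 6. Slc1a2 was found as deposited in 82.0% of the cells of Cluster 2 and 12.5% of those of Cluster 6, and after thinning in 73.2% and 2.20%. The astrocyte list outnumbered the axon list in 62.4% of thinned cells of Cluster 2 and the axon list the astrocyte list in 31.0%. In Cluster 5 these shares were 92.4% and 5.53%. The median cell of Cluster 2 had 8 astrocyte, 5 axon and 22 myelin UMIs (11 without Fth1) of its 500, against 16, 4 and 15 (7 without Fth1) in Cluster 5. Across cells of a mouse, astrocyte and axon list UMIs were weakly related, with a median rho of -0.178 over the 9 mice (-0.335 to 0.121), and the fixed total of 500 UMIs pushes such values below 0. In Cluster 5 this median was -0.467. For astrocyte and myelin list UMIs the median in Cluster 2 was -0.0782, with -0.438 in WT uninjured replicate 2 and -0.555 in cKO uninjured replicate 2.

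The cell table also holds an earlier cluster number, under which Cluster 2 had 2527 cells. Of these, 1155 were moved to Cluster 1 and 159 to Cluster 3. The cells that were kept had more astrocyte list UMIs than those moved to Cluster 1 (1.76% against 0.881%), fewer endothelial list UMIs (0.0820% against 1.06%) and less Malat1 (2998 against 9267 CPM). Kif5a was at 1655 in the kept cells, 1068 in those moved to Cluster 1 and 1296 in those moved to Cluster 3, all several times the 56.4 of the cells that were in Cluster 1 from the start. Of the kept cells 96.0% came from the higher set and of those moved to Cluster 1 57.1%, so that in these pooled values reassignment and set cannot be told apart.

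The share of a mouse's cells that fell in Cluster 2 differed most between the sets of animal numbers. It was 0.390 to 2.40% in the 6 mice of the lower set and 5.02 to 20.03% in the 9 of the higher set, with no overlap. Within the higher set it was highest in the uninjured mice, at 19.4% (17.4 to 21.6%) of WT and 20.03% (17.8 to 22.4%) of cKO cells. The cKO 1 d mouse had 10.1%, the 7 d mice 7.50% (WT) and 6.57% (cKO), and the 14 d mice 5.52% and 6.44% (WT) and 7.31% and 5.02% (cKO). Both uninjured mice of the higher set thus had more of these cells than any injured mouse, and both are among the mice whose cell names give another condition.

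Loss of Ryk was compared over the injured mice. Averaged over 1 d, 7 d and 14 d, the share was 1.43 percentage points higher in 6 cKO than in 5 WT mice (exact permutation test, two-sided, genotypes exchanged within each time, p = 0.694, where 0.00926 is the smallest p the design can give). The difference fell to -0.178 without cKO 1 d replicate 2, so that its sign depended on that library. It was -0.318 without WT 1 d replicate 1, the only WT mouse at 1 d, which leaves 8 mice at 7 d and 14 d, and -0.370 in the 6 mice of the higher set at these times, where 12 permutations allow no p under 0.167 and none is given. At 14 d, the only time with 2 mice of the higher set per genotype, the means were 5.98 ± 0.646% in WT and 6.16 ± 1.62% in cKO.

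**Figure D3:**
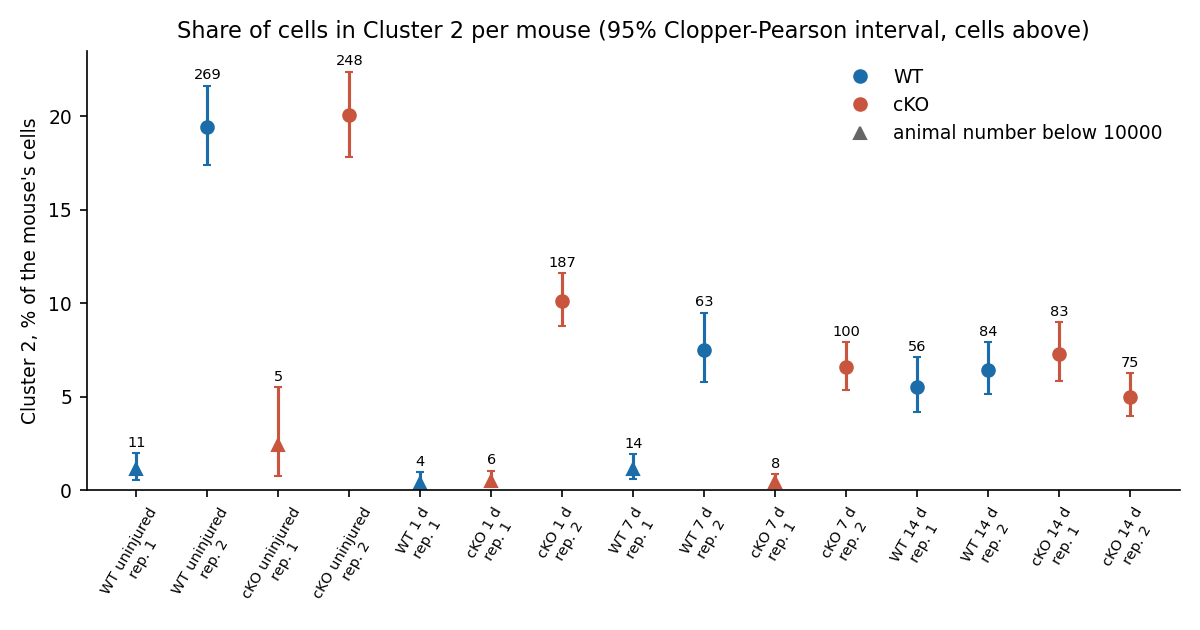
Share of each mouse's cells that fell in Cluster 2 (%), with the 95% Clopper-Pearson interval and the number of cells above it, for 15 mice. The 6 mice of the lower set (triangles) lie at or under 2.40% and the 9 of the higher set at or over 5.02%, with the uninjured mice of the higher set at 19.4% and 20.03%.

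Ryk itself gave only 39 UMIs in Cluster 2. Its level was 0 and 20.6 CPM in the uninjured WT mice, 17.2 in the uninjured cKO mouse, 19.2 in cKO 1 d, 0 and 16.4 in WT 7 d, 39.5 in cKO 7 d, 52.3 and 81.1 in WT 14 d, and 33.6 and 19.98 in cKO 14 d. WT and cKO mice overlapped across times, and at 14 d both cKO mice lay below both WT mice. Ryk was too low to be tested in the 11 mice, and in the 9 of the higher set its log2 change at 14 d was -1.34 ± 0.99 (SE, edgeR adjusted p = 1.0). With the conditions of the cell names, which call WT 14 d replicate 2 cKO 14 d and cKO 14 d replicate 2 cKO 7 d, this change of Ryk reversed to 0.14. The study does not name the deleted exon, and 3′ tags that fall outside it check nothing about the genotype. The mean of 27.3 ± 23.6 in Cluster 2 lay below the 155 ± 34.6 of Cluster 7 in 11 of 11 mice and below the 78.2 ± 27.1 of Cluster 5 in 10 of 11.

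With the conditions of the titles, no gene was called for genotype in the 11 mice. Of 4762 genes tested in the 11 mice, edgeR called 0 at an adjusted p under 0.05 for cKO against WT at 14 d (0%), over 7 d and 14 d (0%) and uninjured (0%), and for the genotype by injury interaction at 14 d (0%). Before adjustment, 70, 98, 68 and 70 genes had p under 0.05 in edgeR, while DESeq2 gave 0 calls in all 4. In the 9 mice of the higher set, where 3685 genes were tested, the counts were 0, 1 (0.0271%), 0 and 0. The called gene, Gm26870, a lincRNA on chromosome 9, was 1.53 ± 0.35 higher on the log2 scale in cKO over 7 d and 14 d (adjusted p = 0.0452). Its call was lost with DESeq2, with the replicate number as a block, and without WT uninjured replicate 2 (adjusted p = 0.194), cKO uninjured replicate 2 (0.222), WT 14 d replicate 1 (0.504), cKO 14 d replicate 1 (1.0) or cKO 14 d replicate 2 (0.931), with fitted changes of 1.34 to 1.72 in these fits. The result depends on the conditions taken: with those of the cell names the 9 mice gave 17 calls at 14 d and 131 over 7 d and 14 d, and the 11 mice gave 6 in the uninjured comparison and 1 for the interaction. Without WT 14 d replicate 2, 22 genes were called at 14 d, 3 over 7 d and 14 d and 9 for the interaction. In the 11 mice, leaving out WT uninjured replicate 2 gave 1 call in the uninjured comparison and 1 for the interaction.

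Injury was compared with the uninjured mice over both genotypes, and the comparisons at 7 d and 14 d share those controls. In the 11 mice, edgeR called 2 genes at 14 d (0.042%), 1 at 7 d (0.021%) and 3 in cKO 1 d against cKO uninjured (0.063%, 1 mouse on each side, each assumed to vary like the other mice). Gm10800, an annotated coding gene of chromosome 2, had 2, 21, 20 and 7 UMIs in the 14 d mice and 0 in the 3 uninjured mice, at least 19.4-fold higher over the group with a floor of 3 counts (adjusted p = 0.00378). The ribosomal RNA gene n-R5-8s1 had 0, 28 and 11 UMIs in the uninjured mice, 1, 0, 0 and 2 at 14 d and 0 in each 7 d mouse. Its ratio of uninjured to 14 d was 11.1 (95% counting interval 3.54 to 56.3, adjusted p = 0.00562), and its fall at 7 d was at least 5.17-fold (adjusted p = 0.0256). In cKO 1 d replicate 2, Cdh23 had 112 UMIs against 0 in the cKO uninjured mouse, the small heat shock protein gene Hspb1 40 against 0, and AC140233.1 85 against 1 (adjusted p = 0.00314, 0.0194 and 0.0408). Cdh23 was thus at least 55.6-fold higher and Hspb1 at least 19.8-fold, and AC140233.1 had a ratio of 127 (22.1 to 5056), all against this 1 mouse. WT uninjured replicate 2 had 5, 5 and 11 UMIs of these genes among 242336, so against it the differences would be smaller. Of Hspb1, WT 7 d replicate 1 had 4 UMIs among 4570.

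Whether these genes passed the threshold depended on single libraries, though most fitted changes moved little. The count at 14 d was 0 without WT uninjured replicate 2, WT 14 d replicate 2 or cKO 14 d replicate 1, 6 without WT uninjured replicate 1 or WT 7 d replicate 1, and 5 without WT 7 d replicate 2. The count at 7 d was 3 without WT uninjured replicate 1 and 2 without WT 7 d replicate 1, and 0 without WT uninjured replicate 2, WT 7 d replicate 2 or any of the 4 mice at 14 d. The 3 calls in cKO 1 d were lost without any of the 4 mice at 14 d. For Gm10800 the adjusted p was 0.588 without WT uninjured replicate 2, 1.0 without WT 14 d replicate 2 and 0.265 without cKO 14 d replicate 1, and for n-R5-8s1 at 14 d it was 1.0 and 0.389 without the latter mice. At 7 d n-R5-8s1 had 0.452 without WT 7 d replicate 2 and 0.0535 to 0.124 without a 14 d mouse. Without a 14 d mouse the adjusted p was 0.0657 to 0.173 for Cdh23, 0.0657 to 0.173 for Hspb1 and 0.304 to 0.869 for AC140233.1. In these fits the log2 change stayed at 9.08 to 9.18 for Cdh23, 7.59 to 7.70 for Hspb1, 5.88 to 5.96 for AC140233.1 and -6.57 to -6.37 for n-R5-8s1 at 7 d, and the 14 d mice enter these comparisons only through estimates shared by the whole fit, such as the variance. At 14 d it was 5.59 to 6.48 for Gm10800 (6.52 with all mice) and -3.41 to -3.07 for n-R5-8s1 (-3.78). Over all fits without 1 mouse, the change at 14 d ran from -5.38 to -3.07 for n-R5-8s1 and from 5.59 to 6.85 for Gm10800. Taking conditions from the cell names left 0 calls at 14 d and 0 at 7 d, and the change of n-R5-8s1 at 7 d reversed to 0.74. DESeq2 called 1, 0 and 0 genes in the 3 comparisons, and with the replicate block the count in cKO 1 d was 2.

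In the 9 mice of the higher set alone, edgeR called 201 genes at 14 d (5.45%), of which 43 were higher (1.17%) and 158 lower (4.29%). It called 99 at 7 d (2.69%), 17 higher (0.461%) and 82 lower (2.23%), and 79 in cKO 1 d (2.14%), 27 higher (0.733%) and 52 lower (1.41%), and DESeq2 called 53, 27 and 35. Here the uninjured side is 1 WT and 1 cKO library, both of replicate 2, both with a median of 343 genes per cell against 522 to 941.5 at 14 d. Injury and what else set these libraries apart cannot be told apart. With the replicate block the counts were 143, 77 and 64. Leaving out a mouse moved the count at 14 d to 305 (WT 14 d replicate 1), 63 (cKO 14 d replicate 1) or 31 (cKO 14 d replicate 2), that at 7 d to 166 (WT 14 d replicate 1), 252 (WT 14 d replicate 2), 26 (cKO 14 d replicate 1) or 27 (cKO 14 d replicate 2), and that in cKO 1 d to 51 (WT uninjured replicate 2), 170 (WT 14 d replicate 1), 244 (WT 14 d replicate 2), 13 (cKO 14 d replicate 1) or 13 (cKO 14 d replicate 2).

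Scaling also moved these counts. TMM factors were 0.631 and 0.586 in the uninjured mice and 1.10 to 1.25 in the others, and scaling by library totals alone would move the median change of all genes by 0.91 at 14 d, 0.92 at 7 d and 0.94 in cKO 1 d on the log2 scale. In the 11 mice the shifts were 0.66, 0.90 and 0.98, with -0.51 for genotype in uninjured mice, -0.15 over 7 d and 14 d and 0.52 for the interaction. Under library totals alone, 1202 genes were called at 14 d (1173 higher, 29 lower), 610 at 7 d (591 and 19) and 397 in cKO 1 d (385 and 12). Changes are given below under TMM, with those under totals beside them, and levels of single mice are CPM of library totals.

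UMIs counted for a few abundant genes were much higher in the uninjured libraries of the higher set. Whether these UMIs came from transcripts of the named genes was not tested. Cdk8, a kinase of the Mediator complex, had 45676 and 43556 CPM in the uninjured WT and cKO mice of the higher set, 11324 in cKO 1 d, 6395 (WT) and 4309.7 (cKO) at 7 d, and 7354, 4054, 5579.8 and 5356 at 14 d. It was 0 in WT uninjured replicate 1 and 219 in WT 7 d replicate 1, so its high level was a property of 2 uninjured libraries and not of the remaining uninjured mouse. Its log2 change at 14 d was -3.81 ± 0.36 (adjusted p = 5.06e-22, totals -2.90) and at 7 d -3.93 ± 0.48 (8.43e-13, totals -2.99). Gphn, the scaffold of inhibitory synapses, moved likewise (-3.03 ± 0.34 at 14 d, 2.05e-16, totals -2.12), as did Gm42418 (-2.27 ± 0.42, 1.47e-05, totals -1.36), which took 178636 and 196075 CPM in the uninjured mice of the higher set and 51290 to 86121 in its 14 d mice.

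Under TMM, 10 of 18 myelin genes tested were called lower at 14 d in the higher set. Injury and what else set its uninjured libraries apart cannot be told apart. Mobp, a structural protein of compact myelin, stood at 4019 (WT) and 5963 (cKO) CPM without injury, 1415 in cKO 1 d, 3617 (WT) and 1484 (cKO) at 7 d, and 2482 and 2027 (WT) and 2353 and 2018 (cKO) at 14 d. Every injured mouse of the higher set lay below both uninjured mice, whereas the lower set had 973 uninjured and 219 at 7 d. Its log2 change was -1.96 ± 0.31 at 14 d (adjusted p = 6.5e-08, totals -1.04), -1.92 ± 0.38 at 7 d (0.000136, totals -0.98) and -2.84 ± 0.56 in cKO 1 d (0.000162, totals -1.89), called with every single mouse left out that could be. Mbp fell from 18074 and 24975 to 7681, 7986, 14622 and 11451 at 14 d (-1.89 ± 0.34, 8.52e-06, totals -0.97), a call lost without cKO 14 d replicate 2 (adjusted p = 0.0525) at a change of -1.79. Of 18 myelin genes tested at 14 d, 10 fell and 0 rose, where 4.29% of all genes fell and 1.17% rose, with a median of -1.20 against 0.04 over all genes. Under totals 4 fell and 2 rose, where 29 of all 3685 genes fell and 1173 rose, with a median of -0.29 against 0.95. At 7 d, 8 fell and 0 rose (2.23% and 0.461% of all genes), and under totals 2 fell and 0 rose (19 and 591 of all genes).

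Axon genes took a higher share of library totals after injury in the higher set, at 1.23 to 2.09% against 0.912% (WT) and 0.844% (cKO) without it. WT uninjured replicate 1 had 1.24% and WT 7 d replicate 1 had 0.241%. Under totals the median gene of all those tested in the higher set also rose, by 0.95 at 14 d and 0.84 at 7 d on the log2 scale. The higher share is therefore not particular to axon genes, and injury and what else set the uninjured libraries apart cannot be told apart. Under TMM the axon genes called at 14 d went in both directions. Nefh, the heavy neurofilament subunit, had 235 (WT) and 168 (cKO) CPM in the uninjured mice of the higher set, 397 in cKO 1 d, 2515 (WT) and 1342 (cKO) at 7 d, and 444, 784, 1064 and 879 at 14 d. All injured mice of that set lay above both uninjured mice, but WT uninjured replicate 1 had 1095 and WT 7 d replicate 1 had 0. Its log2 change was 2.36 ± 0.39 at 7 d (adjusted p = 6.25e-07, totals 3.30) and 1.14 ± 0.35 at 14 d (0.0267, totals 2.07), the latter call lost without cKO 14 d replicate 1 (0.296) or cKO 14 d replicate 2 (0.243) at changes of 1.05 and 1.22. Of 21 axon genes tested at 14 d, 3 rose and 1 fell with a median of 0.30 (totals 16 and 0, median 1.22), where 1.17% of all genes rose and 4.29% fell (totals 1173 and 29 of 3685). Cplx1, a leading gene of no list, rose from 301 and 168 to 692, 973, 874 and 1029 at 14 d (1.16 ± 0.34, 0.0215, totals 2.09), a call lost without cKO 14 d replicate 1 (0.193) or cKO 14 d replicate 2 (0.303) at changes of 1.20 and 1.12.

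Calls of the 4 marker genes named for Cluster 2 depended on the gene and the scaling. Bc1 had 2327 and 1514 CPM in the uninjured mice of the higher set and 666, 1959, 1244 and 1119 at 14 d, overlapping groups, and its log2 change of -1.41 ± 0.30 (adjusted p = 0.000337) shrank to -0.48 under totals. S100b had 2286 and 2865 against 2025, 1034, 1938 and 1799, groups that do not overlap, and its change of -1.42 ± 0.30 (0.000313) shrank to -0.51 under totals. Both calls were lost without cKO 14 d replicate 1 (0.0605 for Bc1, 0.0622 for S100b) or cKO 14 d replicate 2 (0.141 and 0.137), at changes as large as before (-1.47 and -1.36 for Bc1, -1.46 and -1.37 for S100b), and that of Bc1 with the replicate block. Kif5a was not called under either scaling (-0.65 ± 0.31, adjusted p = 0.233, totals 0.27). Its change of sign follows from the shift of 0.91 that totals give to the median of all genes. Nefl was not called under TMM (0.30 ± 0.32, adjusted p = 0.681) and was under totals (1.22, adjusted p = 0.00112).

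**Figure D4:**
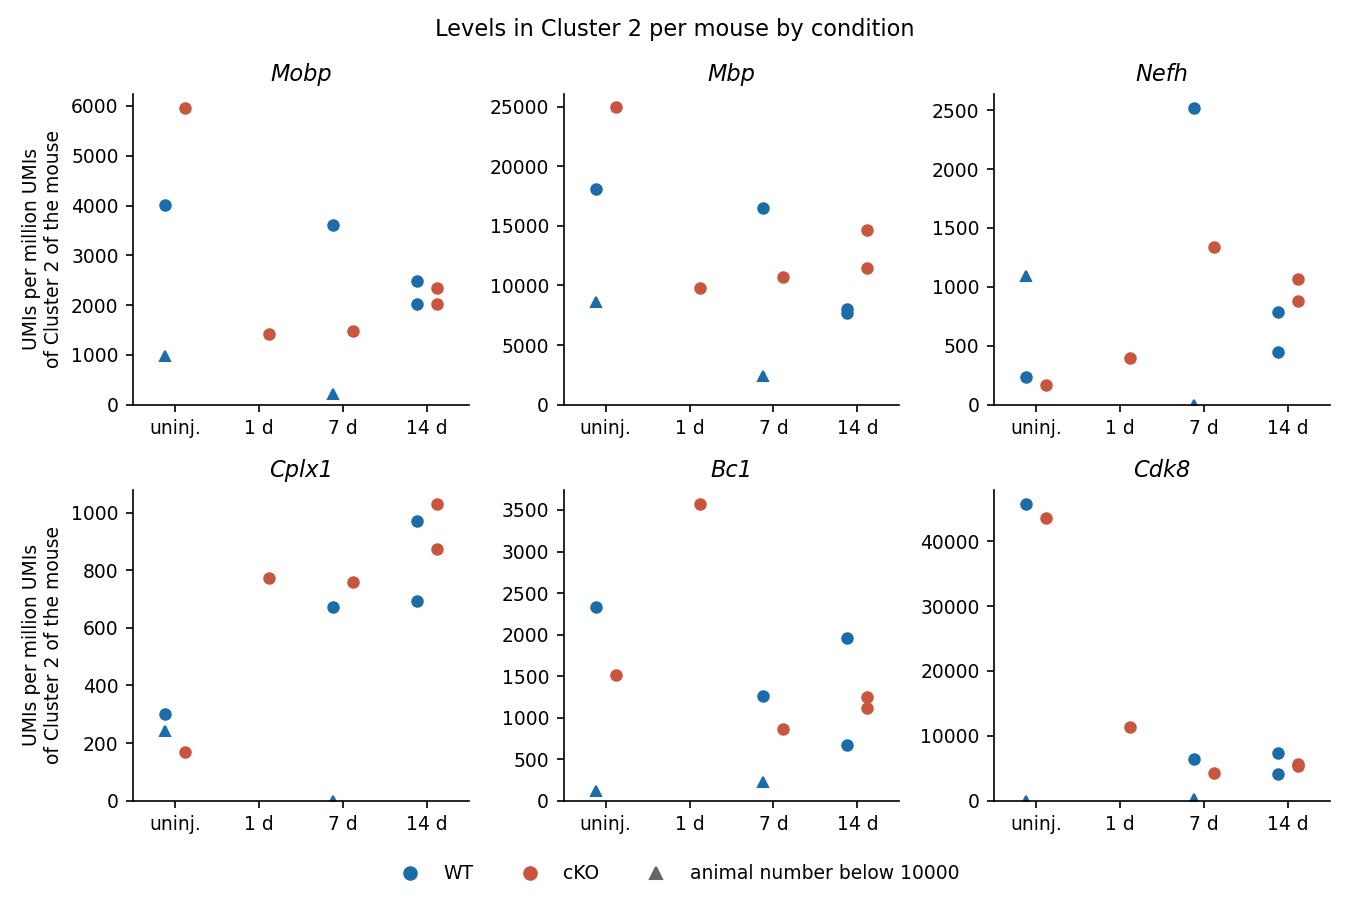
CPM of the library total in Cluster 2 for 6 genes by time after injury, with 1 point per mouse (11 mice, triangles for the lower set). In the higher set Mobp and Cdk8 are highest and Nefh and Cplx1 lowest in the uninjured mice; under TMM the fall of Bc1 at 14 d is called (log2 change -1.41), and under library totals it is not (-0.48).

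Other lists followed the scaling. Of all genes, 1.17% rose and 4.29% fell at 14 d under TMM, and 1173 of 3685 rose and 29 fell under totals, with medians of 0.04 and 0.95. At 14 d the log2 medians under TMM and totals were -0.48 and 0.43 for 22 astrocyte genes (0 rose and 1 fell, totals 1 and 0), -0.34 and 0.58 for 35 mitochondrial genes (0 and 5, totals 10 and 1), and -0.78 and 0.13 for 76 ribosomal protein genes (0 and 24, totals 7 and 1). The astrocyte count is thus at the background under TMM. Under totals 1 of the 22 rose, where 1173 of 3685 of all genes did. The astrocyte median lay below that of all genes under both scalings. The 12 neuron cell body genes tested were all higher at 14 d with a median of 0.92, and 0 were called under TMM (totals 12, median 1.83). The list as a whole took 0.0813% and 0.0942% of the UMIs in the uninjured mice of the higher set and 0.180 to 0.321% in its injured mice, with no overlap, while WT uninjured replicate 1 had 0.183% and WT 7 d replicate 1 had 0.0656%. The medians of the astrocyte, mitochondrial and ribosomal lists changed sign with the scaling. Totals moved the median of all genes by 0.91, so these changes of sign say nothing further about the lists.

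The largest changes of the higher set included those of rare transcripts and of abundant ones such as Cdk8. At 14 d the 5 largest rises that kept the groups of mice apart were those of Gm10800, Atcay (26 UMIs against 2 uninjured, ratio 14.9, 95% counting interval 3.73 to 129.6), the ion channel partner Fgf13, the membrane binding protein gene Anxa2 (20 against 1, 22.9, 3.67 to 951) and Gm26870, and the 5 largest falls were those of Hbb-bt, Hba-a2, n-R5-8s1, Hba-a1 and Cdk8. The 3 haemoglobin genes had 16, 26 and 19 UMIs in the uninjured mice and 0, 1 and 2 at 14 d (Hbb-bt, Hba-a2, Hba-a1). WT uninjured replicate 2 alone held 24 of the 26 and 16 of the 19, so that the ratios of these 2 genes rest largely on 1 mouse. Hbb-bt fell at least 4.65-fold, the ratios were 22.7 (3.72 to 929) for Hba-a2 and 8.28 (2.00 to 73.3) for Hba-a1, and 4 of 4 red blood cell genes tested fell under either scaling, where 4.29% of all genes fell under TMM and 29 of 3685 under totals. Other injured mice went the other way: cKO 7 d replicate 2 had 96 UMIs of Hba-a1 and 68 of Hba-a2, and cKO 1 d replicate 2 had 34 and 22. The red blood cell list took 0.192% and 0.0916% of the UMIs in these mice, against 0.0409% and 0.0125% in the uninjured mice of the higher set, and whether blood in single samples contributed was not tested. Gm26870 rose by 3.65 ± 0.43 (adjusted p = 9.65e-15, totals 4.57). Of 16 genes named and called at 14 d besides Gm10800 and n-R5-8s1, only 5 kept their call with every single mouse left out that could be: Mobp, Cdk8, Gphn, Gm42418 and Gm26870. Anxa2 had 12 UMIs in the 11 cells of WT uninjured replicate 1, more than in either uninjured mouse of the higher set, so its rise is not one from uninjured mice in general. Of its 20 UMIs at 14 d, 13 came from cKO 14 d replicate 1. Without that mouse its log2 change at 14 d fell from 3.85 to 2.88. At 7 d the largest rises were those of Anxa2 (34 UMIs against 1, ratio 86.1, 14.4 to 3499), Gm37459 (18 against 2, 22.8, 5.46 to 202.5), Nme7 (19 against 3, 16.0, 4.72 to 84.6), Gm26870 (3.1 ± 0.48, adjusted p = 8.13e-08) and Nefh, and the largest falls those of n-R5-8s1, the G protein subunit gene Gng11 (-4.72 ± 0.98, 0.000316), the methyl-DNA binding protein gene Mbd2 (-4.59 ± 0.62, 2.3e-10), Ak3 and Slc41a1. The calls of Gm37459 and Nme7 were lost without cKO 14 d replicate 1 (adjusted p = 0.160 and 0.122) or cKO 14 d replicate 2 (0.103 and 0.0863), at log2 changes of 4.58 to 4.59 and 4.34 to 4.35.

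In cKO 1 d the largest rises were those of Cdh23, Hspb1, the neutrophil genes S100a8 (22 UMIs against 0, at least 10.9-fold) and S100a9 (21 against 0, at least 10.4-fold), and Gm10800 (15 against 0, at least 7.44-fold). S100a8 and S100a9 also had 7 and 13 UMIs in the WT uninjured mouse of the higher set and 13 each in cKO 7 d replicate 2. An immune and myeloid list of 7 genes, of which S100a9 was the most abundant and the T cell gene Cd3e had 0 UMIs, took 0.0391% of the UMIs in cKO 1 d and 0.000430% in cKO uninjured replicate 2. Whether such cells contributed was not tested. Calls of S100a8, S100a9 and Gm10800 were lost without WT uninjured replicate 2, cKO 14 d replicate 1 or cKO 14 d replicate 2. That of S100a8 was also lost without cKO 7 d replicate 2. In these fits the log2 changes were 7.06 to 7.17 for S100a8, 7.00 to 7.11 for S100a9 and 6.51 to 6.62 for Gm10800. With all 9 mice they were 7.11, 7.05 and 6.57. The largest falls were those of Pdlim2, the microtubule destabiliser gene Stmn1 (-3.07 ± 0.57, adjusted p = 4.26e-05, totals -2.12), Gm19951, Mir6236 (call lost without cKO 14 d replicate 1, adjusted p 0.0612, or cKO 14 d replicate 2, 0.0650) and Qdpr (-2.87 ± 0.55, 0.000108, totals -1.91), an enzyme that regenerates tetrahydrobiopterin. Of a list of 20 reactive astrocyte genes, 3 were high enough to be tested and 1 rose (Hspb1), where 0.733% of all genes rose. Under totals 3 rose, as did 385 of all 3685 genes.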

How the data were processed

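Single-cell RNA of spinal cord was measured in 16 mice. The authors aligned reads with Cell Ranger to mm10, filtered and clustered cells with Seurat, and deposited raw UMI counts without normalization. The deposited cell table gives each cell's total count, number of genes, percent mitochondrial UMIs, cluster and batch. Totals and gene numbers equal those of the matrix in 18203 of 18203 cells.

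UMIs of Cluster 2 were summed per mouse for the 11 mice with at least 10 cells (4570 to 242336 UMIs) and tested with edgeR 4.0.16 (TMM, filterByExpr, quasi-likelihood fit of group means, Benjamini-Hochberg adjustment, threshold 0.05) and DESeq2 1.42.0 in R 4.3.3. The edgeR fit was tried on simulated data, and DESeq2 was not. Levels are CPM (UMIs per 1e6 UMIs). Log2 ratios between clusters were taken within mice with a pseudocount of 50 and describe clusters without a test. Genes counted between clusters had a mean of at least 50. Intervals (95%, Clopper-Pearson) and floors of 3 counts cover counting error only. Shares used mice with at least 50 cells and an exact permutation test. Python 3.11.15, numpy 2.4.6, pandas 2.3.3, scipy 1.17.1 and matplotlib 3.10.9 were used. Positions and types of genes came from a GENCODE annotation by symbol, which may differ from the authors' annotation.

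Named were genes of the lists, the 20 leading genes and, per comparison, at most 5 rises and 5 falls, taken by size among called genes whose groups of mice do not overlap. The genes Gm42418, Gphn, Cdk8 and genes with changed calls outside this rule were chosen after their values were seen. Members and lists were chosen with earlier results of these data known. The batch in the cell table equals the replicate number in 16 of 16 mice, so the numbers pair mice by batch. Deviations of mice from their group means correlated with a median r of 0.0182 between 6 pairs of conditions, 1 of them above 0.1. Alternatives were another tool, RLE factors, no low-count filter, at least 20 cells, the replicate block, the animal number set as a term or the higher set alone, the conditions of the cell names, other pseudocounts, means over cells, and each mouse left out. Library totals alone, and all alternatives within the higher set, were chosen after seeing the data.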

Additional observations from a re-analysis of the deposited data

How the results depend on the processing

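Levels within mice against other clusters kept their direction and moved by less than 1 SD in 89 of 90 alternatives, while Mbp against Cluster 8 changed to -0.31 with means over cells. They did so in 165 of 165 fits without 1 mouse. Genes called in the 11 mice at 14 d, 7 d and in cKO 1 d (2, 1 and 3) numbered 201, 99 and 79 with at least 20 cells per mouse or in the higher set alone (the same 9 mice), 62, 26 and 15 with the animal number set as a term, 66, 21 and 8 under library totals alone, 1, 0 and 0 with DESeq2, and 0, 0 and 0 without a low-count filter, which tests more genes. RLE factors gave 4 at 14 d, and the conditions of the cell names 0 at 14 d and 0 at 7 d. For genotype, 0 became 1 over 7 d and 14 d with at least 20 cells or in the higher set, 6 (cell names) or 2 (totals) uninjured, and 1 (cell names) or 1 (totals) for the interaction. In the higher set, the 201, 99 and 79 calls became 53, 27 and 35 with DESeq2, 1202, 610 and 397 under totals, and 83, 53 and 46 without a filter. Cell names gave 163 in cKO 1 d, and for genotype 17 at 14 d and 131 over 7 d and 14 d. With the conditions of the titles, DESeq2 and the replicate block gave 0 in both of these genotype comparisons. Neither was combined with the cell names. The cause was not tested. The replicate block, which allows for the pairing of mice by number, changed no other count by more than 1.5 times.

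Reversed under the cell names were n-R5-8s1 at 7 d (0.74) and Ryk at 14 d (0.14). The difference in share also reversed (-0.370 in the higher set, -1.17 in replicate 2 alone, -1.29 under the cell names). Kif5a at 14 d reversed under totals (0.27), through the shift that totals give to genes in general. The cause of the other reversals was not tested. Of 217 alternatives of named genes in the higher set, 179 kept direction and call, 35 lost the call, 1 gained it and 2 reversed.

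Without 1 mouse, counts in the 11 mice ran 0 to 0 for genotype at 14 d and over 7 d and 14 d, 0 to 1 uninjured, 0 to 6 at 14 d, 0 to 3 at 7 d, 0 to 4 in cKO 1 d and 0 to 1 for the interaction. In the higher set they ran 0 to 22, 0 to 3, 0 to 0, 31 to 305, 26 to 252, 13 to 244 and 0 to 9. The difference in share, over injured mice of both sets, ran from -0.318 (without WT 1 d replicate 1, which removes 1 d from the comparison) to 3.04. Neither uninjured mouse of the higher set could be left out at 7 d or 14 d, since each is alone in its group.

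Limits: 1 d in WT rests on no mouse with 10 cells, and 5 groups of the higher set have 1 mouse, assumed to vary like the others. Depth limits single genes: a count of 0 in the smallest library, 4570 UMIs, says little. Differences of Kif5a, Nefl and S100b between Clusters 2 and 5 are small beside the spread of mice. Free RNA was not removed.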
